A study of Mus musculus with 2 samples.

Results

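Ciliated airway cells were followed in 2 single-cell libraries of mouse lung at postnatal day 10. A barcode was taken as ciliated when it held at least 500 detected genes, under 10% mitochondrial counts and at least 10 unique molecular identifiers (UMIs, 1 per captured RNA molecule) summed over 6 genes. These were Foxj1, Ccdc153, Tmem212, Dynlrb2, Cfap126 and 1110017D15Rik. At most 2 UMIs over the endothelial, mesenchymal and immune genes Pecam1, Col1a2 and Ptprc were allowed. The rule found 155 cells among 9012 barcodes, 102 in the control and 53 in the mutant library. The 6 genes chose the cells, so their levels are a description.

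Both libraries held sorted epithelial, immune, endothelial and mesenchymal lung cells and were made with the 10x Chromium 3' chemistry. The labels call one library control and the other mutant. Both labels name Nkx2-1, and Aqp5 is named for the mutant alone. Nkx2-1 encodes a homeobox transcription factor of lung epithelium, and the series concerns its part in the thin alveolar type 1 (AT1) cells across which gas is exchanged. Aqp5 encodes a water channel, and its locus has been used to drive Cre recombinase in AT1 cells. The alleles, the strain, the number of animals pooled and whether the control carries Cre are not given in the labels used here. There was 1 library per group and so no replicate check, and differences between the libraries cannot be told apart from differences between animals or preparations. Intervals are exact at 95% and cover counting error only.

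Multiciliated cells line the conducting airways and move mucus outward by the beating of motile cilia. Each cilium is built on a basal body around an axoneme of microtubule doublets and a central pair, with dynein arms as motors and radial spokes between doublets and centre. The cells arise from secretory or basal progenitors when Notch signalling is low. Mcidas and Gmnc start the programme, Ccno and Deup1 serve the multiplication of centrioles, and Foxj1 and the Rfx factors switch on the genes of the axoneme.

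The rule left few barcodes near its limit. The 3 lowest ciliated cells held 14, 16 and 17 UMIs of the 6 genes in the control and 11, 12 and 15 in the mutant. The limit is in raw UMIs, so the depth of a cell helps to decide whether it passes. Over all genes these control cells held 5542, 10731 and 7506 UMIs, beside a median of 6388. The mutant cells held 15572, 16766 and 19957 UMIs, beside a median of 5584. Whether these mutant cells would pass at the median depth was not tested. The 3 highest barcodes just under the limit held 5, 3 and 3 UMIs in control and 6, 4 and 4 in mutant cells. The median ciliated cell held 51 UMIs of the 6 genes in the control and 38 in the mutant. A further 4 barcodes in each library passed 10 UMIs and were left out for their endothelial, mesenchymal or immune UMIs.

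**Figure D1:**
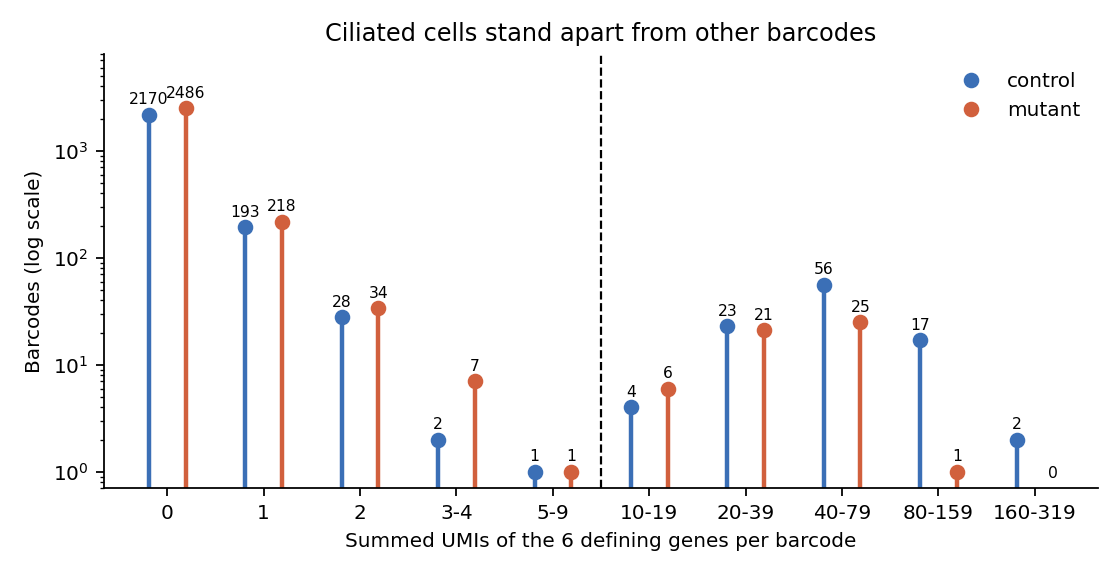
Number of barcodes (log axis) by the summed UMIs of the 6 defining genes, for filtered barcodes with at most 2 UMIs of Pecam1, Col1a2 and Ptprc. The dashed line is the limit of 10 UMIs. Only 3 control and 8 mutant barcodes hold 3 to 9 UMIs, and 2170 and 2486 hold none.

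The defining genes were found in 81.1 to 100% of the ciliated cells of a library. Foxj1 (ENSMUSG00000034227, chr11:116330704-116335399 on the minus strand, GRCm38), the master regulator of motile cilia, had a UMI in 99.0% of control and 98.1% of mutant ciliated cells. Its level, as counts per 1000000 UMIs summed over the cells (CPM), was 678 in the control and 624 in the mutant. In endothelial cells Foxj1 stood at 0.325 and 2.98 CPM. Dynlrb2, a light chain of dynein, was found in 100% of both sets of cells, at 2136 and 1317 CPM. Tmem212, a membrane protein of ciliated cells, was found in 96.1% and 81.1%, at 858 and 357 CPM, with a log2 ratio of mutant over control of −1.27, and of −0.80 without the deep cells described below. Ccdc153 stood at 966 and 626 CPM, Cfap126, which belongs to the inside of the axonemal doublets, at 1203 and 717 CPM, and 1110017D15Rik at 1651 and 1164 CPM. Foxj1 and Dynlrb2 were at a median of 4 and 14.5 UMIs per control cell and of 4 and 10 UMIs per mutant cell.

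Endothelial, mesenchymal and immune markers left little RNA in these cells. Pecam1, Col1a2 and Ptprc are among these markers and were limited by the rule, so the low sums in part describe the choice. The 10 endothelial markers summed to 40.8 CPM in control and 78.6 CPM in mutant cells, beside 14465 and 14251 CPM in endothelial cells. The 10 mesenchymal markers summed to 111 and 73.8 CPM and the 10 immune markers to 51.9 and 114 CPM. Of 9 basal cell markers 7 were at 0 in each library, among them Trp63 and Krt5. Of 14 neuroendocrine and tuft markers 11 and 10 were at 0, and of 5 ionocyte markers 3 were at 0 in each, among them Foxi1 and Ascl3. The 17 club cell markers summed to 45768 and 47005 CPM and the 17 alveolar type 2 (AT2) markers to 21820 and 1162 CPM, and are described below by cell. The 15 AT1 markers summed to 2257 and 2235 CPM, and none was at 0. In endothelial cells these markers summed to 2684 and 2054 CPM and in mesenchymal cells to 811 and 582 CPM. In other epithelial cells the sums were 14220 and 4576 CPM.

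The control ciliated cells held 809611 UMIs in all, with a median of 6388 per cell (2355 to 33722), and the mutant cells 420064, with a median of 5584 (3897 to 23584). The median number of genes per cell was 2613 and 2453, and the median mitochondrial share 4.30% and 4.59%. Of the barcodes, 27 occurred in both libraries. Of these 2 were ciliated cells of the control and 0 were ciliated cells of the mutant.

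A few cells carried much of the RNA. Cells with over 2 times the median UMI count of the ciliated cells of their own library are called deep cells here. The control had 9 of 102 such cells with 25.9% of the UMIs, and the mutant had 12 of 53 with 48.4%. Ciliary genes, a union of 13 lists described below without the 6 defining genes, made up a smaller part of the RNA of most deep cells. The summed ciliary level had a median of 27337 CPM in deep control cells (15300 to 72768) and 17497 CPM in deep mutant cells (10586 to 29699). Without deep cells the medians were 57305 and 57751 CPM. The 6 defining genes had a median of 3732 CPM in deep and 8765 CPM in other control cells. In the mutant these medians were 1245 and 7968 CPM. Deep mutant cells thus passed the rule by raw UMIs, with a low share of the defining genes in their RNA. A doublet caller marked 3 of the 9 deep control cells and 0 of the 12 deep mutant cells. Where a gene named below as at least 2-fold different was under 2-fold without deep cells, its value without them is given too.

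Ciliated cells made up 2.46% of filtered barcodes in the control (2.01 to 2.98) and 1.20% in the mutant (0.900 to 1.57). Against the cells counted as epithelial by at least 2 UMIs of Epcam and Cdh1, the shares were 7.17% (5.88 to 8.63) and 2.16% (1.62 to 2.81). The number of other epithelial cells was 1321 in the control and 2404 in the mutant. Median depths of these other epithelial cells were 8128 and 12194 UMIs. The sort and the depth can both set these shares, and their part was not tested. With at least 5 UMIs of Epcam and Cdh1 the shares were 20.5% and 2.48%.

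Ciliated cells were set beside other epithelial cells of the same library. Of 3849 genes with at least 50 UMIs over the ciliated cells of both libraries, 475 (12.3%) were at least 4-fold above other epithelial cells in each library. Of the 202 ciliary genes past the same minimum, out of 313 listed, 157 were. Since ciliated cells were chosen by genes of the same cells, these counts describe the choice. The most separated gene outside the rule was Dnah12, an inner arm dynein heavy chain, at a log2 difference of 11.03 in the control and 11.84 in the mutant. Its level was 180 and 331 CPM in ciliated cells against 0.0864 and 0.0904 CPM in other epithelial cells. Among the 20 most separated genes were the dynein heavy chains Dnah9 and Dnah6, the central apparatus genes Spag6l and Spag17, and Ccdc40, part of the ruler that spaces the inner arms. Spag6l has a close paralog, so its reads may be split. The 20 also held the tektin Tekt1, the ciliary tip gene Sntn, Pifo, Meig1, Lrrc23, Efcab10, Fam183b and Cfap206. The other 7 were 1700012B09Rik, 3300002A11Rik, 4833427G06Rik, BC051019, Gm867, 2410004P03Rik and Dnah12 itself.

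The 5 genes with the pattern most like that of Foxj1 were found over the populations. Over 12 totals (6 populations in each of 2 libraries) of log2(CPM + 1), Pearson's r was 0.996 for 1700007K13Rik, 0.992 for 1110017D15Rik, 0.991 for Tctex1d4, 0.989 for Kif27 and 0.989 for Cfap53. The 12 totals share 2 libraries, and the 2 ciliated totals carry most of the likeness. Foxj1 and 1110017D15Rik chose the ciliated cells, so this likeness is a description of the choice.

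A short word that the rule did not use was more frequent in ciliary promoters than in all promoters. Rfx factors bind the X-box, a pair of inverted sites with a small gap. RefSeq promoter windows (GRCm38.p6, 250 bases before to 50 after the start) were matched by symbol for 258 of 319 ciliary genes, defining genes included, giving 312 windows. The core word GTTGCC, on either strand, stood in 116 of these 312 windows (37.2%) and in 12.5% of all 32851 windows. The full form, GTNNCC and GGNAAC with 2 bases between, on either strand and with overlap with the core word allowed, stood in 34 of them (10.9%) and in 1.29% of all. Of 12 strings searched, these were singled out after their counts were known, and 4 other X-box forms stood in 0 to 7.05% of ciliary and 0.128 to 0.804% of all windows. GTTGCCA, which holds the core word, stood in 17.6% and 4.38%. The forkhead string TGTTTAC stood in 4.81% of ciliary and 3.65% of all windows, CCAAT in 42.9% and 37.4%, and TATAAA in 7.37% and 13.6%. The other forkhead strings TGTTTGT and TGTTTA, the latter inside TGTTTAC, stood in 4.81% and 15.1% of ciliary and 6.61% and 13.4% of all windows. A match is a description of letters in the window.

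Of the defining genes, 5 had a window. Dynlrb2, Ccdc153 and 1110017D15Rik held the core word, Tmem212 and Cfap126 did not, and Foxj1 had no window. The windows below show the core word in 2 defining genes and the full form in Ccno and in 2 of the genes most separated from other epithelial cells. The window of Cfap206 holds the full form without the core word. All are 5′ to 3′ on the strand of the gene. Capitals mark the core word in the first 2 windows and the full form, matched on either strand, in the other 3. The windows are chr8:116504765-116505064 (plus) for Dynlrb2, chr9:44240427-44240726 (plus) for Ccdc153, chr4:34730157-34730456 (minus) for Cfap206, chr16:16829314-16829613 (minus) for Spag6l and chr13:112987552-112987851 (plus) for Ccno.
Dynlrb2: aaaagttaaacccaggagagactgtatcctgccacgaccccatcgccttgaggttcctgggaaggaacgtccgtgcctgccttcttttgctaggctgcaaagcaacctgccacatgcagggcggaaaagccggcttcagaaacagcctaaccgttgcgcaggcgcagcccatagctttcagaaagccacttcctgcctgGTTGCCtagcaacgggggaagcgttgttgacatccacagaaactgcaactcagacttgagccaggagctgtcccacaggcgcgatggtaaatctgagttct
Ccdc153: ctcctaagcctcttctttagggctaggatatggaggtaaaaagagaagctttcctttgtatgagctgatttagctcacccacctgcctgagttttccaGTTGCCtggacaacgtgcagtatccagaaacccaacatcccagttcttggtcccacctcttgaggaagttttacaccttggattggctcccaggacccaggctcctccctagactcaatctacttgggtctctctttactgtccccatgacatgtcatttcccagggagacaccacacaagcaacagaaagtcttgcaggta
Cfap206: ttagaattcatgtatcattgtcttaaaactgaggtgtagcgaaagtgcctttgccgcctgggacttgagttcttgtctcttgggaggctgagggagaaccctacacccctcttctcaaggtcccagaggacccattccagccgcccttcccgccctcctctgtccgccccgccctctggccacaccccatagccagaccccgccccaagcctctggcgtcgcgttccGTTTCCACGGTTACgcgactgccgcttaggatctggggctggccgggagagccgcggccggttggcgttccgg
Spag6l: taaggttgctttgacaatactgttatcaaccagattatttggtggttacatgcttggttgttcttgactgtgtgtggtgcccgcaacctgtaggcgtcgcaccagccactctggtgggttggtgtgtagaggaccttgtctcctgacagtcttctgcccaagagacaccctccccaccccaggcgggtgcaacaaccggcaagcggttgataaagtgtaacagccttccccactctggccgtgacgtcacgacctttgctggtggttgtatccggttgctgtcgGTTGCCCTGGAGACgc
Ccno: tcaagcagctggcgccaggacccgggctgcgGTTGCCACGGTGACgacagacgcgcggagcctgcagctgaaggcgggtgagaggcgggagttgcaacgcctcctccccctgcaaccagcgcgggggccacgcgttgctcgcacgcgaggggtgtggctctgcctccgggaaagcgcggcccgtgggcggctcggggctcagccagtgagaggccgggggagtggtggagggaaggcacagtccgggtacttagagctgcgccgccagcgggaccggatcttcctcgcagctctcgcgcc
Counted from the start, the match began 51 bases before it in Dynlrb2, 152 before in Ccdc153, 23 before in Cfap206, 219 before in Ccno, and lay at 34 within the transcribed side in Spag6l. In ciliated cells these 5 genes stood at 2136, 966, 163, 198 and 167 CPM in the control, in the order Dynlrb2, Ccdc153, Cfap206, Spag6l and Ccno. In the mutant they stood at 1317, 626, 126, 164 and 71.4 CPM in the same order.

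The mutant was compared with the control over summed UMIs, with the ratio given as log2 of mutant over control CPM. Of the 3849 genes, 213 (5.53%) were at least 2-fold higher and 241 (6.26%) at least 2-fold lower in mutant ciliated cells, and the median log2 ratio was 0.00066. Of the 202 ciliary genes, 6 were at least 2-fold higher and 32 at least 2-fold lower, with a median log2 ratio of −0.35. Without deep cells the same 202 genes had a median of 0.11, with 19 at least 2-fold higher and 7 lower, beside 219 and 222 of the same 3849 genes. Of the 2794 genes past the minimum without deep cells, 4.65% were at least 2-fold higher and 4.72% lower. When each cell weighed the same, the median was −0.07. The summed ciliary level was 51752 CPM in the control and 38527 in the mutant, and 56108 and 57191 without deep cells. So the lower sum in the mutant went with its 12 deep cells, and the remaining cells of the libraries had like sums.

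**Figure D2:**
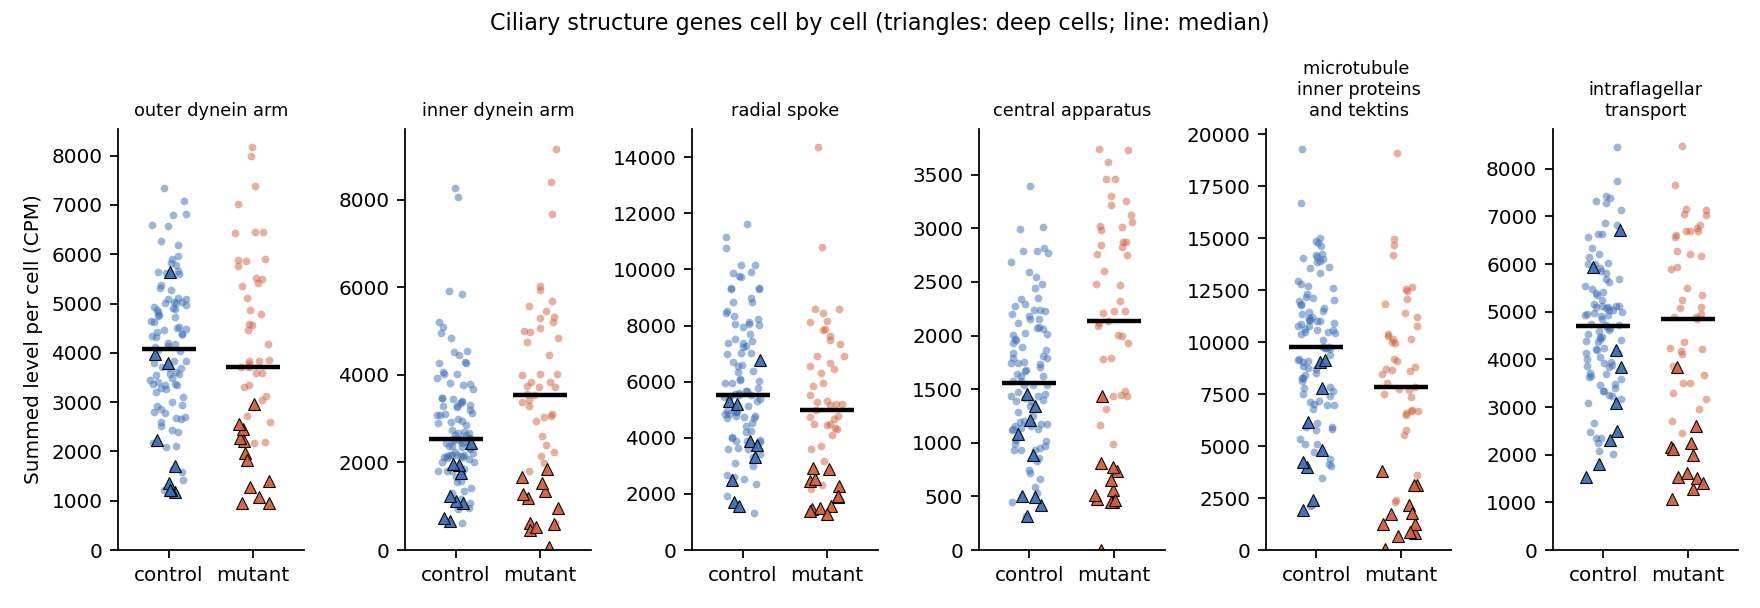
Summed CPM of 6 structural gene lists in each ciliated cell of the control (102 cells) and the mutant (53 cells), without the defining genes, with medians as lines and deep cells as triangles. Median inner dynein arm level is 2529 CPM in the control and 3550 in the mutant, and most deep mutant cells sit at the foot of each panel.

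Besides Foxj1, 13 regulators of the ciliary programme were listed and 5 passed the minimum, with a median log2 ratio of −0.67, and −0.15 without deep cells. Of these, 4 lay within 2-fold, while 11.8% of all 3849 genes were at least 2-fold higher or lower. Foxj1 itself, which helped to choose the cells, had a log2 ratio of −0.12, and of 0.46 without deep cells. Myb, which acts early in multiciliated precursors, stood at 135 CPM in control and 117 CPM in mutant cells. Trp73, a p53 relative needed for multiciliogenesis, stood at 55.6 and 61.9 CPM. Rfx3 stood at 64.2 and 40.5 CPM, Rfx2 at 48.2 and 26.2 CPM, with ratio intervals of 0.342 to 1.11 and 0.251 to 1.08 that both include 1. Ccno was at least 2-fold lower, at 167 and 71.4 CPM, with 23 and 3 UMIs left without deep cells. Gmnc had 0 UMIs in each library, which allows up to 3 UMIs.

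Outer dynein arm genes, the main motors of the beat, had a median log2 ratio of −0.11 over 11 tested genes of 17 measured, Dynlrb2 left out, and 0.30 without deep cells. Dnah5, the heavy chain of the outer arm, was the 1 gene at least 2-fold higher. It stood at 92.6 CPM in control cells (75 UMIs) and 229 CPM in mutant cells (96 UMIs), a ratio of 2.47 (1.80 to 3.38). Dnah5 had a UMI in 51.0% of control and 73.6% of mutant cells. The other heavy chains Dnah9 and Dnah11 had log2 ratios of 0.25 and −0.11. Ccdc151, which helps to dock the arm, was the 1 gene at least 2-fold lower, at 58.1 and 26.2 CPM, and at −0.39 without deep cells.

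Inner dynein arm genes had a median of −0.11 over 22 genes, and 0.35 without deep cells. All 22 were at least 4-fold above other epithelial cells in both libraries, beside 12.3% of all 3849 genes. Ccdc39, partner of Ccdc40 in the ruler of the inner arms, stood at 140 CPM in control and 281 CPM in mutant cells, a ratio of 2.01 (1.54 to 2.63). Its partner Ccdc40 stood at 117 and 112 CPM, a log2 ratio of −0.07. Dnah12 had a log2 ratio of 0.88 and Dnah3 of 0.97, while Dnah7a, Dnah6 and Dnah10 lay between −0.29 and 0.13. Gas8, Ccdc65 and Iqca, of the regulatory complex between doublets, were at least 2-fold lower, at log2 ratios of −1.13, −1.03 and −1.01. Without deep cells these were −0.84, −1.31 and −0.53.

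Dynein assembly factors fold the arms in the cytoplasm. Over all cells their list had the lowest median of the ciliary lists, −1.08 over 6 tested genes of 16. Without deep cells it was −0.23, above the −0.41 of ciliary energy and signalling. The ATPases Ruvbl1 and Ruvbl2, which also serve in chromatin complexes, stood at 109 and 141 CPM in control and at 28.6 and 47.6 CPM in mutant cells. The ratio of Ruvbl1 was 0.263 (0.131 to 0.483) and that of Ruvbl2 0.338 (0.199 to 0.547). Without deep cells the log2 ratio was −1.18 for Ruvbl1, in place of −1.93, and −0.95 for Ruvbl2, in place of −1.56. Zmynd10 had a log2 ratio of −1.03, and 0.22 without deep cells. Pih1d2 and Lrrc6 had log2 ratios of −0.62 and −0.38, and 0.01 and 0.18 without deep cells.

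Radial spoke genes had a median of −0.70 over 15 genes, and −0.05 without deep cells. Rsph9, of the spoke head, stood at 343 CPM in control and 152 CPM in mutant cells, a ratio of 0.444 (0.333 to 0.584), and its log2 ratio of −1.17 was −0.43 without deep cells. Rsph1, also of the head, stood at 526 and 319 CPM, and Rsph4a at 109 and 107 CPM. The adenylate kinase Ak8 had 44 and 7 UMIs, a ratio of 0.307 (0.117 to 0.686), and its log2 ratio of −1.71 was −1.01 without deep cells.

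Central apparatus genes, which form the pair at the axis of the cilium, had a median of 0.08 over 12 genes, and 0.69 without deep cells. Hydin had 49 UMIs in control and 42 in mutant cells, a ratio of 1.65 (1.07 to 2.55). Spag17 stood at 226 and 233 CPM, and Spef1, which bundles microtubules, at 195 and 181 CPM. Kif9, a kinesin, had the lowest log2 ratio of the list, −0.97. Without deep cells Cfap54, Cfap46 and Spef2 had log2 ratios of 1.18, 1.06 and 1.01.

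Microtubule inner proteins and tektins, which line the doublets from inside, had a median of −0.80 over 24 genes, Cfap126 left out. Of these, 23 were lower, 7 of them at least 2-fold. Of all 3849 genes, 1920 were lower, and 6.26% at least 2-fold lower. Without deep cells the median of the list was −0.14 and none of its genes was 2-fold lower or higher. Tekt1 stood at 261 CPM in control and 102 CPM in mutant cells, a ratio of 0.393 (0.276 to 0.547), and had a UMI in 74.5% and 49.1% of cells. Tekt4 stood at 162 and 57.1 CPM, a ratio of 0.353 (0.218 to 0.549). The log2 ratios of Tekt1 and Tekt4 were −1.35 and −1.50, and −0.71 and −0.87 without deep cells. Cfap53, with a log2 ratio of 0.09, was the 1 gene of the list that was higher. Tppp3, a tubulin-binding protein and the most abundant of the list, stood at 3803 and 2488 CPM, and at 4454 and 4149 CPM without deep cells.

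Intraflagellar transport genes, which carry cargo along the cilium, had a median of −0.18 over 31 genes, and 0.11 without deep cells. Of the 31, 14 were at least 4-fold above other epithelial cells in both libraries, beside 12.3% of all 3849 genes. Ift88, of the anterograde complex, stood at 72.9 CPM in control and 157 CPM in mutant cells, a log2 ratio of 1.11, and Ift172 and Ift81 had log2 ratios of 0.19 and 0.43. Ift43 and Ift22 stood at 500 and 315 CPM in control and 236 and 126 CPM in mutant cells, and Ift20 at 447 and 395 CPM. The log2 ratio of Ift43 was −1.09, and −0.54 without deep cells. Cluap1, a part of the anterograde complex, had a ratio of 0.361 (0.178 to 0.676), and Ttc8, of the BBSome, 0.400 (0.188 to 0.775). Ift22 and Ttc8 had log2 ratios of −1.32 and −1.32, and −0.60 and −0.60 without deep cells.

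Basal body genes had a median of −0.33 over 16 genes, and 0.29 without deep cells. Mlf1 stood at 624 CPM in control and 250 CPM in mutant cells, a ratio of 0.401 (0.322 to 0.495), and the centrin Cetn2 at 408 and 236 CPM. B9d1 and B9d2, of the transition zone, were at least 2-fold lower, at log2 ratios of −1.19 and −1.25. Without deep cells Mlf1, B9d1 and B9d2 had log2 ratios of −0.78, −0.75 and −0.69, so none of them was 2-fold lower. The large centrosome protein genes Cep290 and Pcm1 had log2 ratios of 0.86 and 0.86, and 1.44 and 1.24 without deep cells.

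Tubulins and their modifiers had a median of −0.01 over 15 genes. Tuba1a stood at 2281 CPM in control and 1059 CPM in mutant cells, and Tubb4b, the main beta tubulin of cilia, at 2061 and 921 CPM. Without deep cells their log2 ratios were −0.57 and −0.48. Alpha tubulin genes are near copies of each other, so counts may be split among them. Stmn1 and Tubb5 were higher in the mutant, at log2 ratios of 1.86 and 1.72, but at 0.29 and −0.37 without deep cells. Genes of ciliary energy supply and signalling had a median of −0.68 over 17 genes, and −0.41 without deep cells. Ckb, which passes phosphate from creatine, stood at 619 and 202 CPM, a ratio of 0.327 (0.257 to 0.412). Ldhb stood at 327 and 107 CPM, a log2 ratio of −1.61, and −1.07 without deep cells. A further 30 ciliated cell genes had a median of −0.26, and 0.21 without deep cells. Of them 29 were at least 4-fold above other epithelial cells in both libraries, beside 12.3% of all 3849 genes. In this list Cd24a, a surface protein often used to sort ciliated cells, stood at 1666 and 1624 CPM and Sec14l3 at 1367 and 1414 CPM. Planar cell polarity aligns the beat, and of 20 genes listed under that name 4 passed the minimum, with a median of 0.21. Celsr1 stood at 72.9 and 92.8 CPM and Dpcd at 354 and 217 CPM.

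**Figure D3:**
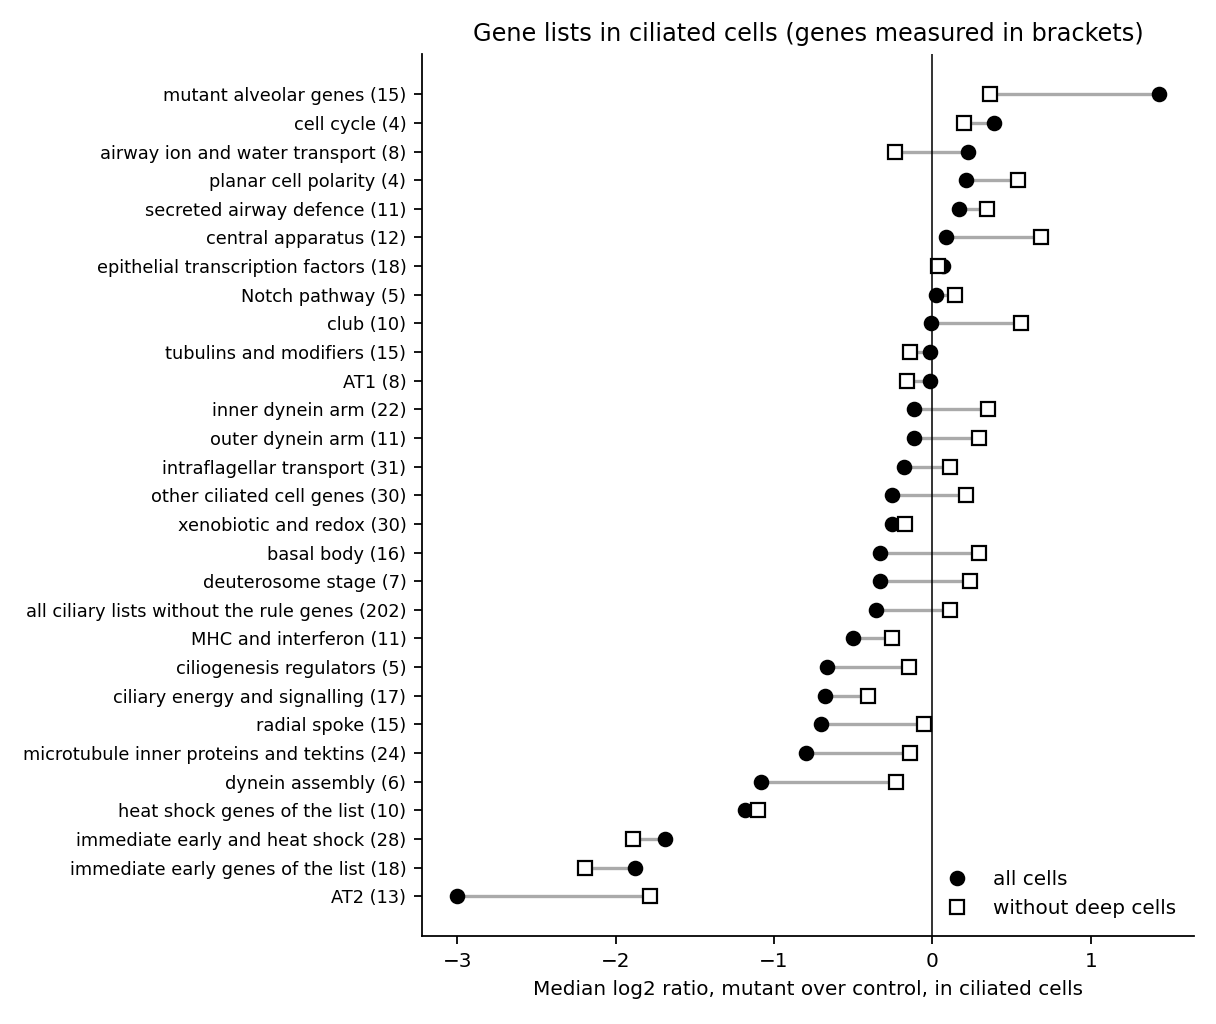
Median log2 ratio of mutant over control in ciliated cells for each gene list with at least 4 genes past 50 UMIs, over all cells (filled) and without deep cells (open), number of genes in brackets, defining genes left out. Most ciliary lists move up when deep cells are left out, the union from −0.35 to 0.11, while the immediate early and heat shock list stays near −1.7 to −1.9.

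Long ciliary transcripts had higher ratios than short ones. Across the 202 ciliary genes, the log2 ratio and the log2 length of the longest annotated transcript (GENCODE vM21) had Pearson's r of 0.52 and Spearman's rho of 0.55. The rho was 0.53 without deep cells. These are across genes, which share the 2 libraries and are not independent replicates. In the 68 shortest (567 to 1841 nt) the median log2 ratio was −0.79, with 20 at least 2-fold lower and 1 higher. In the 67 longest (3469 to 15783 nt) the median was 0.13, with 1 at least 2-fold lower and 4 higher. Of all genes with a length, the 1283 shortest had a median of −0.22, with 139 at least 2-fold lower and 41 higher. The 1282 longest had a median of 0.27, with 27 lower and 127 higher. Dnah5 (15637 nt), Hydin (15783 nt) and Dnah12 (12009 nt) were higher and Tekt1 (1447 nt) and Mlf1 (1114 nt) lower. The relation was also found over all genes: rho was 0.38 over 3847 genes with a length in ciliated cells, 0.47 in endothelial and 0.45 in mesenchymal cells. It was 0.25 in club-like, 0.17 in other epithelial and 0.14 in immune cells. The part of transcript length in the ratios of single ciliary genes was not tested.

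**Figure D4:**
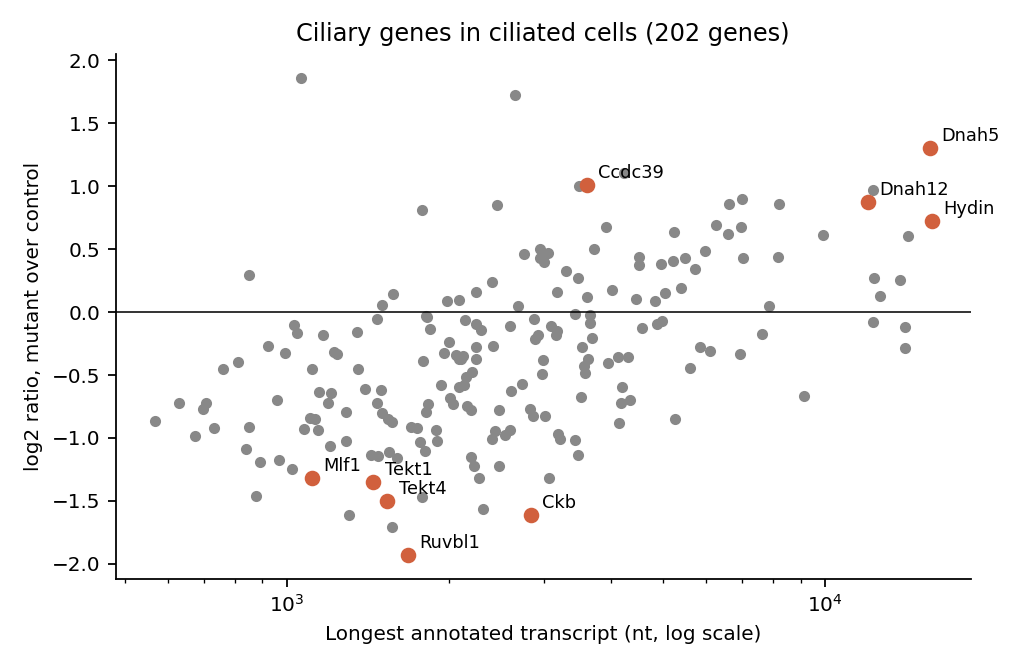
Log2 ratio of mutant over control in ciliated cells against the length of the longest annotated transcript (nt, log axis), 1 point per ciliary gene, 202 genes. Points climb from a median of −0.79 in the 68 shortest genes to 0.13 in the 67 longest, and the genes in colour are described in the text.

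Some genes of centriole multiplication had most of their UMIs in a few cells, and others did not. With at least 10 UMIs of Ccno, a level chosen after the values were seen, 3 control cells (2.94%, 0.611 to 8.36) and 2 mutant cells (3.77%, 0.460 to 12.98) stood out. The remaining cells held at most 4 and 1 Ccno UMIs. The 3 control cells held 108 of 135 Ccno UMIs, 13 of 13 of Mcidas, which starts the programme, and 9 of 9 of Foxn4. They held 60 of 82 UMIs of Ccdc67, the symbol used here for the deuterosome gene Deup1. The 2 mutant cells held 26 of 30 Ccno, 3 of 3 Mcidas, 1 of 1 Foxn4 and 12 of 24 Ccdc67 UMIs. Plk4, the kinase that starts a new centriole, had 10 of its 11 control and 4 of its 10 mutant UMIs in these cells. Ccdc78 had 7 of 91 and 0 of 37 there, and Ccp110, a cap of centrioles, 6 of 51 and 0 of 21. All 5 were deep cells. Foxj1 stood at 1604 CPM in the 3 control cells against 566 CPM in the rest, and at 1282 against 567 CPM in the mutant. Tmem212 stood at 57.3 against 955 CPM in the control and had 0 UMIs in the 2 mutant cells. Scgb1a1, the secretoglobin of club cells, held 11416 of its 33259 control UMIs in the 3 cells and 11410 of its 17739 mutant UMIs in the 2 cells. Cyp2f2, a cytochrome of club cells, held only 2 of 947 and 33 of 349 there. Mki67, a marker of dividing cells, was at 0 UMIs in the 3 control and the 2 mutant cells.

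Immediate early and heat shock genes were lower in mutant ciliated cells. Of 28 genes past the minimum (35 listed), 21 were at least 2-fold lower and 0 higher, with a median log2 ratio of −1.69 and −1.89 without deep cells. The share of all genes at least 2-fold lower was 6.26%. Fos, a transcription factor induced within minutes of a stimulus, stood at 1643 CPM in control and 483 CPM in mutant cells, a ratio of 0.294 (0.253 to 0.341). Its UMIs per cell had a median of 10.5 in the control and 0 in the mutant. Hspa1a, an inducible chaperone with the near copy Hspa1b, stood at 604 and 57.1 CPM, a ratio of 0.0946 (0.0600 to 0.142). Atf3, a stress-induced factor, had 448 and 42 UMIs, and Egr1 stood at 755 and 198 CPM. Their log2 ratios of −2.47 and −1.93 were −3.18 and −2.53 without deep cells. Egr2 had 62 and 2 UMIs, a ratio of 0.0622 (0.00737 to 0.234). The constitutive chaperone Hsp90ab1 stood at 1061 and 1105 CPM.

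This difference was seen in other populations as well. The same 28 genes had a median of −1.15 over 24 that passed in club-like cells, −0.98 over 26 in immune, −0.54 over 27 in mesenchymal, −0.52 over 27 in endothelial and −0.39 over 28 in other epithelial cells. The median of all genes in these populations lay between 0.03 and 0.63. When each cell was thinned to 2000 UMIs, which left out no cell, Fos had a UMI in 67.6% of control and 35.8% of mutant ciliated cells. In endothelial cells these shares were 31.6% and 22.2%. For Hspa1a they were 51.0% and 9.43% in ciliated and 22.8% and 8.78% in endothelial cells. Before thinning, the ciliated shares were 85.3% and 49.1% for Fos and 68.6% and 18.9% for Hspa1a. The part of this difference between the libraries as a whole in the ciliated values was not tested.

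Nkx2-1 (chr12:56531958-56536908, minus strand, GRCm38), the gene the labels name, was present in ciliated cells of both libraries. It stood at 280 CPM (245 to 319, 227 UMIs) in control cells and 149.98 CPM (115 to 192, 63 UMIs) in the mutant, a ratio of 0.535 (0.398 to 0.710). Without deep cells the levels were 317 and 249 CPM, a log2 ratio of −0.35 in place of −0.90. Thinned to 2000 UMIs, a UMI of Nkx2-1 was seen in 46.1% of control (36.2 to 56.2) and 34.0% of mutant ciliated cells (21.5 to 48.3), intervals that overlap. Unthinned, the shares were 81.4% and 60.4%. In endothelial cells, which should lack the gene, the thinned shares were 1.83% and 0.204%. In other epithelial cells Nkx2-1 stood at 363 and 25.6 CPM, a log2 ratio of −3.83 beside −0.90 in ciliated cells, and this difference between populations was not tested. The tags come from the 3' end and may lie outside any deleted part, which the labels do not give. So the level does not show whether the protein was intact. Aqp5 had 53 and 19 UMIs in ciliated cells, 65.5 and 45.2 CPM, beside 67.6 and 4.30 CPM in endothelial cells, and 29 and 2 UMIs without deep cells.

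Other transcription factors of airway epithelium had a median of 0.07 over 18 genes, with 3 at least 2-fold higher and 2 lower, beside 5.53% and 6.26% of all genes. Sox2, which marks the conducting airway, stood at 86.5 CPM in control and 90.5 CPM in mutant cells, and Foxa2 at 111 and 117 CPM. Foxa1 stood at 72.9 and 119 CPM, a ratio of 1.63 (1.10 to 2.42). Klf5 stood at 44.5 and 145 CPM, Nfib at 107 and 259 CPM and Hopx at 56.8 and 143 CPM. Without deep cells Klf5 had a log2 ratio of 0.99 in place of 1.71. Id1 and Id3, targets of BMP signalling, stood at 782 and 603 CPM in control and 383 and 226 CPM in mutant cells, and remained at −1.28 and −1.74 (log2) without deep cells. Of the Notch genes 5 of 26 passed, with a median of 0.02. Hes1, a Notch target, stood at 870 and 476 CPM, the ligand Jag1 at 143 and 76.2 CPM, and the receptor Notch1 at 46.9 and 47.6 CPM. Mib1, a ligase that activates ligands, stood at 33.3 and 69.0 CPM, a ratio of 2.07 (1.18 to 3.63).

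Xenobiotic and redox genes had a median of −0.26 over 30 genes. Cbr2, a carbonyl reductase of airway cells, was the highest, at 10745 CPM in control and 6642 CPM in mutant cells, followed by the metallothionein Mt1 at 5831 and 2933 CPM. Gsto1 stood at 331 and 781 CPM, but its log2 ratio of 1.24 was 0.10 without deep cells. Aldh3b1 stood at 435 and 195 CPM, a log2 ratio of −1.16, and −0.75 without deep cells. Ion and water transport genes had a median of 0.22 over 8 genes, and −0.24 without deep cells, with the sodium pump subunit Atp1b1 at 387 and 471 CPM. Antigen presentation and interferon genes had a median of −0.50 over 11 genes, and −0.25 without deep cells. Over all cells 2 of the 11 were at least 2-fold lower, beside 6.26% of all 3849 genes. Without deep cells 0 of the 11 were, beside 222 of the 3849 genes. In this list H2-Ab1 stood at 199 and 80.9 CPM, a log2 ratio of −1.30, and −0.69 without deep cells. Cd74 stood at 690 and 424 CPM, with a log2 ratio of 0.14 without deep cells. Secreted defence genes had a median of 0.17 over 11 genes, with Wfdc2 at 3720 and 3638 CPM.

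Secretory RNA was uneven among ciliated cells. Scgb1a1 was the most abundant of the club genes, at 41080 CPM in control and 42229 CPM in mutant cells, but at a median of 11.5 and 4 UMIs per cell. Without deep cells it stood at 9979 and 17268 CPM, a log2 ratio of 0.79 in place of 0.04, and with at least 5 UMIs of the defining genes the log2 ratio was −0.41. The summed club markers went from 45768 and 47005 CPM to 13183 and 22002 CPM without deep cells. Cells with at least 100 UMIs numbered 15 in the control (14.7%) and 9 in the mutant (16.98%) and held 96.0% and 98.9% of all Scgb1a1 UMIs. Deep cells held 82.0% and 78.9%. Thinned, a UMI of Scgb1a1 was found in 93.1% and 60.4% of ciliated cells and in 57.2% and 12.9% of endothelial cells. Cyp2f2 was spread more evenly. Its level was 1170 and 831 CPM, and thinned shares were 74.5% and 69.8% in ciliated cells against 0.499% and 0.204% in endothelial cells. Unthinned, Cyp2f2 had a UMI in 93.1% and 96.2% of ciliated cells. Retnla had 597 and 126 UMIs, a log2 ratio of −1.30, and 33 and 56 UMIs without deep cells, a log2 ratio of 2.23.

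RNA of AT2 cells was concentrated in few cells. Sftpc, the surfactant protein of AT2 cells, stood at 17371 CPM in control and 209 CPM in mutant ciliated cells. In the control 8 cells with at least 100 UMIs held 91.4% of it, deep cells held 70.5%, and in the mutant 0 cells reached 100 UMIs. Its median was 12 UMIs per control cell and 1 per mutant cell, and its thinned shares were 98.0% and 34.0%, beside 98.0% and 25.3% in endothelial cells. In endothelial cells Sftpc stood at 2956 and 323 CPM, and the part of free RNA in the ciliated values was not tested. Of the 13 AT2 genes tested, 11 were at least 2-fold lower in the mutant, over all cells and without deep cells, with a median of −3.00, and −1.78 without deep cells. The share of all genes at least 2-fold lower was 6.26%. AT2 genes were also lower in endothelial cells, with a median of −1.68 and 8 of 11 at least 2-fold lower, and in mesenchymal cells, with −1.54 and 10 of 13. Of all genes, 1.47% in endothelial and 1.69% in mesenchymal cells were at least 2-fold lower. Lyz2 had 605 and 4 UMIs, Sftpa1 638 and 12, Slc34a2 187 and 7, Napsa 128 and 5 and Chil1 105 and 2. Without deep cells the UMIs were 67 and 2 for Lyz2, 152 and 7 for Sftpa1, 48 and 6 for Slc34a2, 38 and 4 for Napsa and 17 and 0 for Chil1.

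Genes named here because they were high in mutant alveolar epithelium in earlier results of these data were also counted. Of 15 tested, 9 were at least 2-fold higher in mutant ciliated cells, with a median of 1.43, beside 5.53% of all genes. Without deep cells 5 were at least 2-fold higher and 1 lower, with a median of 0.36. The choice of the list on these libraries makes this no independent evidence. Clu, a secreted chaperone, had 51 UMIs in control and 907 in mutant cells (63.0 and 2159 CPM), and the 12 deep mutant cells held 92.4% of the mutant UMIs. Its log2 ratio was 5.10, and 2.29 without deep cells. Cells with at least 10 Clu UMIs numbered 0 and 12, and 10 of these 12 were deep cells. Sprr1a, a cornified envelope gene, had 0 and 157 UMIs, of which 93.0% lay in deep cells, so its level was at least 101-fold higher, with 3 UMIs over the ciliated cells of the control as the floor. Without deep cells Sprr1a had 0 and 11 UMIs, and the bound was 3.34 on the log2 scale in place of 6.66. Tff2, a trefoil peptide, had 1 and 89 UMIs, all 89 in deep cells. The keratin Krt19 had a log2 ratio of 1.04, and of −1.23 without deep cells. In endothelial cells the thinned share for Clu was 4.49% in the control and 21.2% in the mutant, against 9.80% and 35.8% in ciliated cells.

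**Figure D5:**
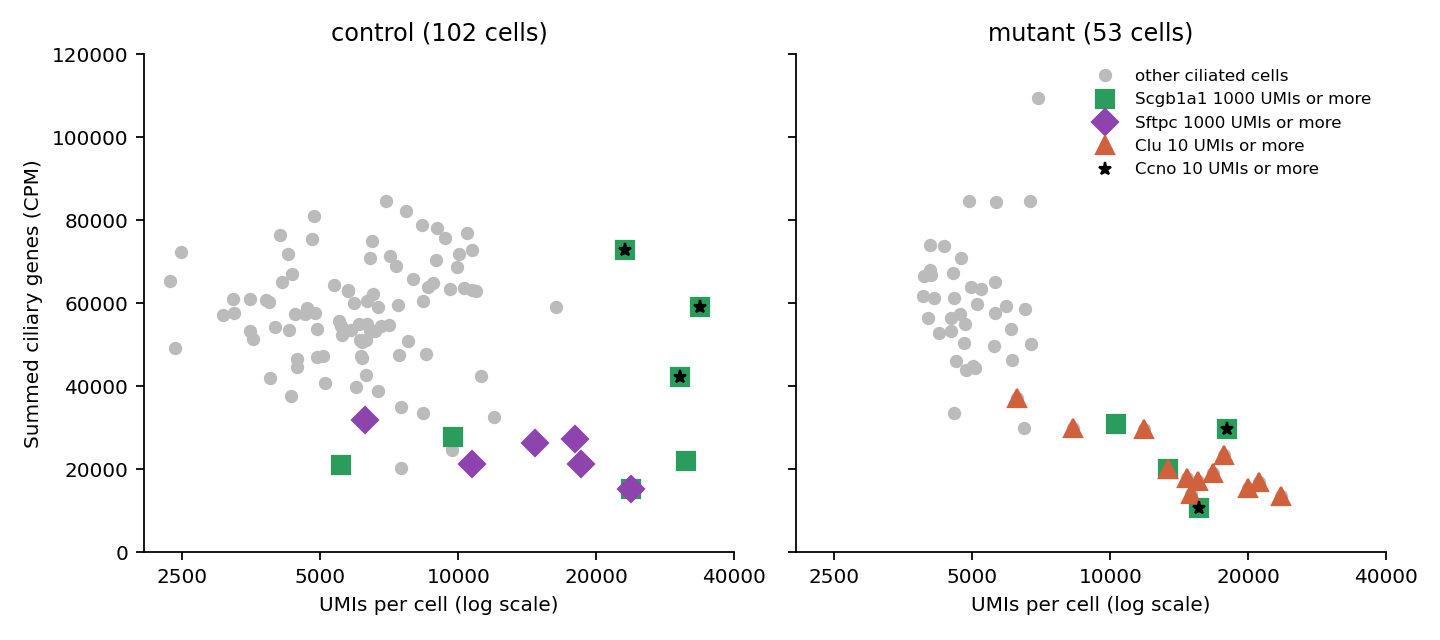
Summed ciliary genes (CPM) against UMIs per cell (log axis) in each ciliated cell of the control (102) and the mutant (53), with cells high in Scgb1a1, Sftpc, Clu or Ccno marked. Most marked cells lie at high depth and low ciliary level. The 3 control cells with at least 10 Ccno UMIs lie at high depth but at 59190, 42319 and 72768 CPM. The 12 cells with at least 10 Clu UMIs are all in the mutant, and 10 of them are deep cells.

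The largest ratios outside the lists followed the deep cells in part. Msln, the mesothelin gene, had 4 and 116 UMIs, a ratio of 55.9 (21.3 to 209), and 1 and 8 UMIs without deep cells. Plac8 and Pdzk1ip1 stood at 6.18 and 28.4 CPM in control and 136 and 224 CPM in mutant cells, but without deep cells only 4 and 2 UMIs of Plac8 and 13 and 6 of Pdzk1ip1 were left. Cryab, Tnfrsf12a, Cd2ap and 2200002D01Rik had log2 ratios of 2.67, 2.72, 2.53 and 2.52, and 1.47, 1.23, 1.07 and 1.38 without deep cells. Apart from AT2 genes, the 10 smallest ratios, taken as given in the next sentence but 1, held Apoe (120 and 1 UMIs, and 8 and 1 without deep cells), the immediate early gene Arc (139 and 6 UMIs) and Atf3. Hspa1a, at a log2 ratio of −3.40, and Egr2 also had lower ratios than Atf3. The 10 largest and 10 smallest ratios were taken among 1881 genes with at least 100 CPM in the higher library, of which 32 were set apart because endothelial, immune and mesenchymal cells differed in the same way. Of 36 cell cycle genes 4 passed the minimum. Mki67 had 1 UMI in 1 control cell and 37 UMIs in 8 mutant cells (15.1%). Of these, 34 UMIs lay in 5 deep cells and 3 in 3 other cells.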

How the data were processed

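Each library's raw UMI counts per gene and barcode, 27998 genes, were deposited by the authors. The submitters' processing notes name Cell Ranger, Seurat and mm10. Versions, annotation release and barcode filters are not given in the labels or files used here. Groups came from the labels, with 1 library each. The ciliated cells were found by the rule given in the report. The other populations were other epithelial (at least 2 UMIs of Epcam and Cdh1, at most 2 of the defining genes), club-like (at least 10 UMIs of Cyp2f2, Aldh1a1, Cldn10, Cckar and Chad), endothelial (at least 5 of Pecam1 and Cldn5), immune (at least 2 of Ptprc) and mesenchymal cells (at least 2 of Col1a2). Doublets were kept in the main values and scored with Scrublet in scanpy 1.11.5.

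Each gene's UMIs, added up within a population of 1 library, were divided by that population's total to give CPM. No test was possible, so called means at least 2-fold either way where the ciliated cells together held 50 UMIs or more. Intervals are exact Poisson for CPM, conditional binomial for ratios and Clopper-Pearson for shares. A count of 0 took 3 counts over the class as floor. Python 3.11.15, numpy 2.4.6, scipy 1.17.1 and pandas 2.3.3 were used, and the code was tested on simulated data with known folds.

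The members and the 32 lists were chosen with earlier results of these data known. Of 764 list entries, 755 were in the matrix. Named genes were the defining genes, Nkx2-1, Aqp5, per list the 2 highest and the 2 with the largest ratio, the 10 largest and 10 smallest ratios, the 20 genes most above other epithelial cells and the 5 most like Foxj1; other genes were named after their values were seen. A gene this rule names is not reported here. Transcript lengths came from GENCODE vM21 and promoters from RefSeq.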

Additional observations from a re-analysis of the deposited data

How the results depend on the processing

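No paired analysis was possible because each group has 1 library. Leaving out deep cells and applying the minimum again turned the ciliary median to 0.070 (176 genes) and the log2 ratio of Tubb5 to −0.37. The median was −0.14 with at least 20 UMIs of the defining genes, −0.70 under 5% mitochondrial UMIs and −0.067 as a mean over cells. Under 5% mitochondrial UMIs left 64 and 30 ciliated cells and a mutant share of 1.53%; at least 5 UMIs of Epcam and Cdh1 gave a control share of 20.5%. Genes at least 2-fold higher numbered 130 without deep cells, 133 under 5% mitochondrial UMIs, 25 after thinning, 698 at a minimum of 20 UMIs and 75 at 100. Genes at least 2-fold lower numbered 132, 72, 486 and 125 without deep cells, after thinning, and at minimums of 20 and 100 UMIs. After thinning, 60 ciliary genes were at least 4-fold above other epithelial cells, of 76 tested. Fewer genes reached the minimum after thinning and at 100 UMIs. The Nkx2-1 log2 ratio was −0.35 without deep cells and −0.25 after thinning. The causes were not tested. Of 180 values for 20 single genes under the alternatives, 119 moved by less than their counting interval, 60 moved further and 1, that of Tubb5, went from over 2-fold to the other side. The sign changed in 7 in all: Tubb5 in 1, Foxj1 in 4 and Scgb1a1 in 2, both within 2-fold over all cells. Free RNA was not subtracted, because bringing Sftpc to 0 would need the endothelial profile of the control scaled 5.88-fold. That factor rests on UMIs summed over the control ciliated cells, where 8 cells held 91.4% of Sftpc, and does not describe the typical cell. In the mutant the factor was 0.648. Depth limits low genes: a gene at 50 UMIs over 155 cells has a wide interval.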
